A study of Mus musculus with 2 samples.

Results

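Ifitm1, Ifitm2 and Ifitm3 encode small membrane proteins that interferons induce. They are 3 of the 32285 genes counted in tumour-infiltrating T cells, and they were chosen by name, with their levels in these libraries already known, so every difference between the libraries given here is a description and not a test. The cells came from tumours of EMT6, a transplantable mouse mammary carcinoma line, grown under the skin of BALB/c mice aged 4 to 6 weeks and randomised once tumours measured 80 to 150 mm3. The treated group received mSTAR1302, which is known to join interleukin-2 to an antibody that binds T cell receptors with Vβ13-2 or Vβ13-3, by intraperitoneal injection in 2 weekly cycles, and the other group received vehicle. Tumours were digested, magnetic beads were used to isolate CD4+ and CD8+ cells, and each group gave 1 droplet library of 3' ends, in which each RNA molecule is counted once as a unique molecular identifier (UMI). With 1 library per group there is no replicate check, how many mice a library holds is not stated in these sources, and treatment and library cannot be told apart. All intervals are 95% and cover counting error only.

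IFITM proteins sit in the plasma membrane and in endosomes, where they hinder the fusion of enveloped viruses with the cell. Ifitm3 is the best studied member in restriction of influenza virus and is found mainly in late endosomes, while Ifitm1 is known more from the cell surface. Type I interferons act mainly through the interferon-stimulated response element (ISRE) in promoters, and interferon gamma acts mainly through the gamma-activated sequence (GAS), so the question put to the data was whether the 3 genes moved with interferon-induced transcripts, or with Cd40lg, the CD40 ligand of helper T cells.

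The 3 genes lie within 55.9 kb of mouse chromosome 7 (build GRCm38, GENCODE M21). Ifitm2 (ENSMUSG00000060591) occupies 140954837 to 140955987 on the minus strand, Ifitm1 (ENSMUSG00000025491) occupies 140967221 to 140969825 on the plus strand, and Ifitm3 (ENSMUSG00000025492) occupies 141009586 to 141010770 on the minus strand. Ifitm5 and Ifitm6 flank them on the same chromosome. The promoter windows are printed here as background, and no comparison of levels below rests on them. Each covers 250 bases before to 50 bases after the start that RefSeq annotates in GRCm38.p6, read 5′ to 3′ on the gene's own strand, with matches to the ISRE motif (GAAA, any bases NN, then GAAA) and the GAS motif (TTCNNNGAA) in capitals. The window of Ifitm1 is chr7:140967826-140968125 (plus strand), that of Ifitm2 is chr7:140955912-140956211 (minus strand), and that of Ifitm3 is chr7:141010695-141010994 (minus strand).
Ifitm1: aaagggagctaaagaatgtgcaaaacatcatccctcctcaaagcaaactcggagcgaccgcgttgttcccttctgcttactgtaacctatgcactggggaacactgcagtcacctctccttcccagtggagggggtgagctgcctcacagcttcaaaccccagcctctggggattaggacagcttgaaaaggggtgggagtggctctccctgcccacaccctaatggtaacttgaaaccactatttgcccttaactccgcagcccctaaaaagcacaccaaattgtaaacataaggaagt
Ifitm2: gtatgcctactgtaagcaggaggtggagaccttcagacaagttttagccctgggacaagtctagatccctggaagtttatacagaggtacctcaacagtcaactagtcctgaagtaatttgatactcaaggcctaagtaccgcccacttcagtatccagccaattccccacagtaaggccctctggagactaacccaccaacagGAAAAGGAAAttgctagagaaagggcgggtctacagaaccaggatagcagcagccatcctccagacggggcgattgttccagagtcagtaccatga
Ifitm3: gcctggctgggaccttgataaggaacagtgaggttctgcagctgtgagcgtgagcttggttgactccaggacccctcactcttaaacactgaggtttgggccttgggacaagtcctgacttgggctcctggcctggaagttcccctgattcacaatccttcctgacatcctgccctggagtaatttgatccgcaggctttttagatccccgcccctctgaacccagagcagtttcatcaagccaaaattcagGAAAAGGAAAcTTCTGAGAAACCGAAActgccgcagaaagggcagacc

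Both strands were searched, and matches were allowed to overlap. The Ifitm1 window held no match to either motif, and GENCODE places a start of this gene further upstream, outside the window. The Ifitm2 window held 1 ISRE match, beginning 46 bases before the start, and no GAS match. The Ifitm3 window held 2 ISRE matches, beginning 2 and 19 bases after the start, and 1 GAS match that shares bases with the second of them. Among 32851 promoter windows of this length, 3.44% held an ISRE match, 0.225% held at least 2, and 8.30% held a GAS match. In the interferon-induced genes used for comparison, the windows of Ifit1 and Ifit3 each held 2 ISRE matches and that of Isg15 held 3. A match describes letters in the window and is neither a binding site nor a cause.

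A barcode counted as a cell with at least 1000 UMIs, 500 genes and at most 10% mitochondrial UMIs, which left 9155 cells in the mSTAR1302 library and 7615 in the vehicle library, with 17 barcodes in both. Cells with at least 2 UMIs of Cd3d, Cd3e and Cd3g were gated as CD8 (Cd8a or Cd8b1, no Cd4; 6290 cells in mSTAR1302 and 2460 in vehicle), CD4 without a Foxp3 UMI (791 cells in mSTAR1302 and 622 in vehicle) and CD4 with one (146 in mSTAR1302 and 1365 in vehicle). The last gate is the one that regulatory T cells, which depend on Foxp3, should fill. Median depth per cell was 6597.5 UMIs in mSTAR1302 and 9865.5 in vehicle in CD8, 6055 in mSTAR1302 and 6415 in vehicle in CD4 without Foxp3, and 6460.0 in mSTAR1302 and 8340.0 in vehicle in CD4 with Foxp3. No doublet caller was run, so droplets with several cells remain. All 8 T cell markers were present in every gate, at sums of 5905 to 6671 CPM in mSTAR1302 and 5705 to 6434 CPM in vehicle, where CPM is UMIs of a gene per 1000000 UMIs summed over a gate.

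Ifitm1, Ifitm2 and Ifitm3 were higher in mSTAR1302 than in vehicle in CD4 cells without Foxp3, by 4.30 to 8.32-fold, and in the few CD4 cells with Foxp3, by 2.85 to 9.33-fold. In CD8 cells Ifitm3 stood at 1.80-fold and Ifitm2 at 1.32-fold, and Ifitm1 was close in both libraries. Among genes reaching 20 CPM in one or the other library, 0.852% of 5514 were at least 2-fold higher in CD4 cells without Foxp3, 0.489% of 5727 in CD4 cells with Foxp3 and 0.933% of 5468 in CD8 cells. All 3 genes met that threshold in both CD4 gates and none did in CD8, which repeats how they were chosen and supports nothing. The median log2 ratio of all genes tested was -0.14 in CD8, -0.21 in CD4 without Foxp3 and -0.13 in CD4 with Foxp3.

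Ifitm1 stood at 1556 CPM in mSTAR1302 (1522 to 1590.2) and 218 CPM in vehicle (205 to 233) in CD4 cells without Foxp3, a ratio of 7.13-fold (6.66 to 7.63). In CD8 cells it stood at 1058 CPM in mSTAR1302 and 1012 CPM in vehicle, a ratio of 1.05-fold (1.03 to 1.06) that turned below 1 under 8 of 13 alternative settings, with log2 values of -0.18 to 0.21. CD4 cells with Foxp3 held 353 CPM in mSTAR1302 and 37.8 CPM in vehicle, a ratio as counted of 9.33-fold (8.21 to 10.6), over a vehicle level that free RNA could hold in full at its upper bound. The mSTAR1302 value in this gate rests on very few cells. Of its 440 Ifitm1 UMIs, 85.7% lay in the 5 highest of 146 cells and 50% in 2 cells, and without the 5 highest cells of each library the log2 ratio was 1.31, against 3.19 with them. Other settings gave up to 7.95, with 10% of UMIs subtracted as free RNA, which takes most of the vehicle level away. Over the 6 combinations of gate and library the level of Ifitm1 was highest in mSTAR1302 CD4 cells without Foxp3, then in CD8 cells of either library. It was lowest in vehicle CD4 cells with Foxp3. No neighbours in that order had overlapping counting intervals, but these leave out the spread between cells. No order is read between the CD8 cells of the libraries.

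Ifitm2, a close relative of Ifitm3, showed the highest level of its own in the same cells, at 2250.1 CPM in mSTAR1302 CD4 cells without Foxp3 (2209.6 to 2291) and 524 CPM in vehicle (502 to 546), or 4.30-fold (4.11 to 4.50). Its level in CD4 cells with Foxp3 was 449 CPM in mSTAR1302 and 157 CPM in vehicle, or 2.85-fold (2.59 to 3.13). In CD8 cells the levels were 594 CPM in mSTAR1302 and 449 CPM in vehicle, or 1.32-fold (1.29 to 1.35). The counting interval of vehicle CD8 cells (442 to 457 CPM) lay inside that of mSTAR1302 CD4 cells with Foxp3 (412 to 487 CPM), so these neighbours in the order of Ifitm2 levels did not differ beyond counting error. The order was otherwise led by mSTAR1302 CD4 cells without Foxp3 and ended with vehicle CD4 cells with Foxp3.

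Ifitm3, the member best known for blocking virus fusion in endosomes, reached 1615 CPM in mSTAR1302 CD4 cells without Foxp3 (1581 to 1649.6) and 194 CPM in vehicle (181 to 208), or 8.32-fold (7.75 to 8.95). Foxp3-positive CD4 cells held it at 493 CPM in mSTAR1302 and 133 CPM in vehicle, or 3.70-fold (3.37 to 4.05). It was also the member that differed most between libraries in CD8 cells, with 399 CPM in mSTAR1302 (393 to 404) and 222 CPM in vehicle (216 to 227), or 1.80-fold (1.75 to 1.85), a log2 ratio of 0.84 that ranged from 0.83 to 1.35 over 13 alternative settings. In this order of levels no neighbours had overlapping counting intervals, which leave out the spread between cells. With cells thinned to equal depth, vehicle CD8 cells held a mean of 0.494 Ifitm3 UMIs and vehicle CD4 cells without Foxp3 0.558. That reverses their order in CPM, so no order is read from this pair. Vehicle stood below mSTAR1302 in each gate.

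**Figure D1:**
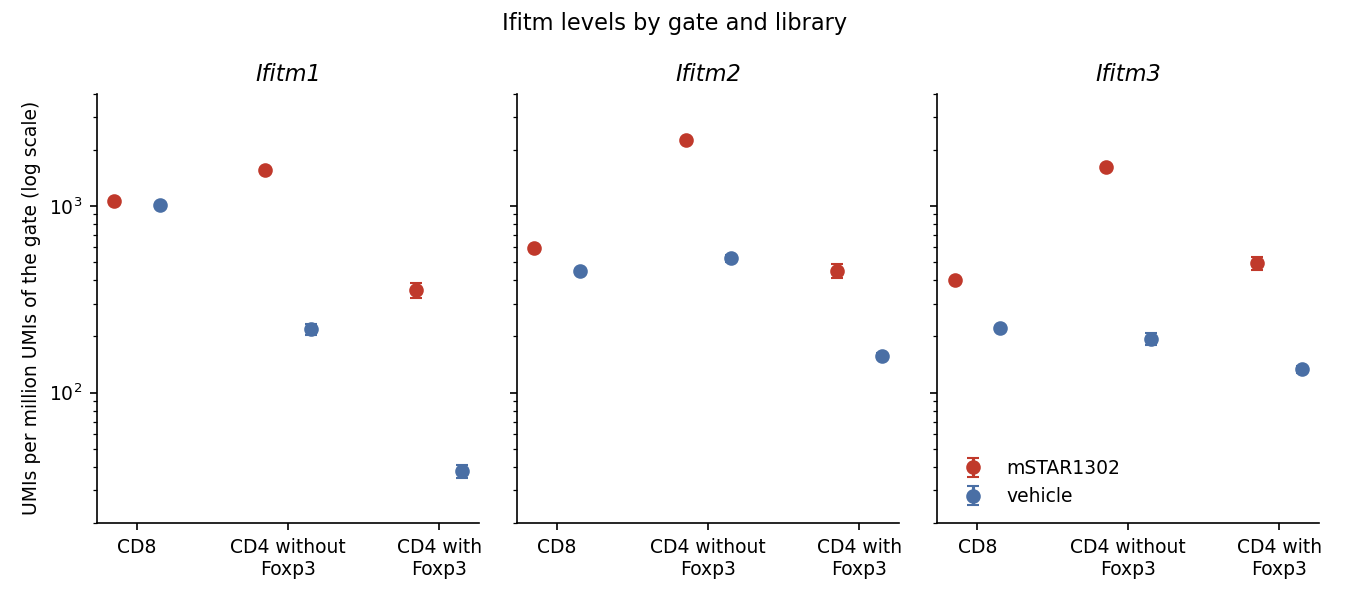
Level of each gene in CPM over the gate (log scale) in the mSTAR1302 library (red) and the vehicle library (blue), with 95% counting intervals, mostly smaller than the points. In CD4 cells without Foxp3, Ifitm1 stood at 1556 CPM in mSTAR1302 and 218 CPM in vehicle, while in CD8 cells its points lie side by side.

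T cells in which Cd4 and Cd8 UMIs occurred together, which droplets with several cells can also give, held Ifitm1 at 1150.4 CPM in mSTAR1302 and 369 CPM in vehicle, and T cells with neither held it at 622 CPM in mSTAR1302 and 30.7 CPM in vehicle. Ifitm2 stood at 1024 CPM in mSTAR1302 and 270.2 CPM in vehicle with both genes, and at 929.8 CPM in mSTAR1302 and 309 CPM in vehicle with neither. For Ifitm3 the values were 694 CPM in mSTAR1302 and 164 CPM in vehicle with both, and 809 CPM in mSTAR1302 and 413 CPM in vehicle with neither. As counted, all 3 genes were thus higher in mSTAR1302 in these remaining T cells too. For T cells with neither gene, free RNA could hold up to 100% of the UMIs in both libraries at its upper bound. At that bound it would hold 155% of the Ifitm1, 71.0% of the Ifitm2 and 85.1% of the Ifitm3 level in mSTAR1302. In vehicle it would hold 1226%, 141% and 108% in the same order. The vehicle levels and the mSTAR1302 Ifitm1 level of these cells therefore cannot be told apart from free RNA at the bound.

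The rest of the family was scarce. Ifitm6, a neighbour of Ifitm3, had 42 UMIs in mSTAR1302 CD4 cells without Foxp3 and 0 in vehicle, which is at least 11.6-fold higher against a floor of 3 UMIs over the gate. In CD4 cells with Foxp3 it had 4 UMIs in mSTAR1302 (3.21 CPM) and 6 in the larger vehicle gate (0.416 CPM). That is 7.72-fold (1.60 to 32.5), from very few UMIs. In CD8 cells it had 15 UMIs in mSTAR1302 (0.307 CPM) and 16 in vehicle (0.553 CPM), or 0.556-fold (0.256 to 1.20). Ifitm10 stood at 12.7 CPM in mSTAR1302 and 8.78 CPM in vehicle in CD8 cells, and Ifitm5 and Ifitm7 had at most 15 UMIs in any gate. Because 3' libraries read the end of a transcript, the last 400 bases of each principal transcript were compared in windows of 50 bases. None of the Ifitm1 or Ifitm2 windows and 4.27% of the Ifitm3 windows occurred in another Ifitm gene, so reads from most of these ends could be assigned to 1 gene.

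Cells with any UMI of a gene are easier to find in deeper cells, so shares were read after thinning each cell to 3000 UMIs, which left out 680 mSTAR1302 and 120 vehicle CD8 cells, 101 mSTAR1302 and 77 vehicle CD4 cells without Foxp3, and 12 mSTAR1302 and 76 vehicle CD4 cells with Foxp3. Ifitm3 was found in 73.2% of mSTAR1302 CD4 cells without Foxp3 (69.7 to 76.5) and in 23.1% of vehicle ones (19.6 to 26.9). Ifitm2 was found in 79.1% of these cells in mSTAR1302 and 33.2% in vehicle. Ifitm1 was found in 49.1% in mSTAR1302 and 13.4% in vehicle. Without thinning the shares were 73.5% in mSTAR1302 and 30.5% in vehicle for Ifitm3, 81.4% in mSTAR1302 and 42.1% in vehicle for Ifitm2, and 53.9% in mSTAR1302 and 18.8% in vehicle for Ifitm1. Both the share of cells with a UMI and the number of UMIs per cell were higher in mSTAR1302 in this gate.

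The CD8 cells behaved otherwise for Ifitm1 and Ifitm2. Ifitm3 was found in 39.4% of mSTAR1302 CD8 cells (38.1 to 40.7) and 22.7% of vehicle ones (21.01 to 24.4) at 3000 UMIs, and in 50.6% of mSTAR1302 and 40.8% of vehicle cells unthinned. Ifitm2 was found in 49.5% of mSTAR1302 and 50.5% of vehicle cells at 3000 UMIs, and in 60.3% of mSTAR1302 and 67.3% of vehicle cells unthinned. Ifitm1 was found in fewer mSTAR1302 cells, 39.75% against 46.5% in vehicle (unthinned 49.0% in mSTAR1302 and 56.5% in vehicle), although its CPM was not lower, so no order is read from this pair. For CD4 cells with Foxp3 the shares at 3000 UMIs were 17.2% in mSTAR1302 and 6.52% in vehicle for Ifitm1, 43.3% in mSTAR1302 and 24.3% in vehicle for Ifitm2, and 39.6% in mSTAR1302 and 18.9% in vehicle for Ifitm3. Unthinned they were 25.3% in mSTAR1302 and 14.2% in vehicle for Ifitm1, 60.3% in mSTAR1302 and 46.7% in vehicle for Ifitm2, and 46.6% in mSTAR1302 and 30.3% in vehicle for Ifitm3.

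Free RNA in the droplets sets a floor under such shares. The near-empty droplets of 20 to 100 UMIs held Ifitm1 at 961 CPM, Ifitm2 at 660.0 CPM and Ifitm3 at 689 CPM in mSTAR1302, and Ifitm1 at 377 CPM, Ifitm2 at 437 CPM and Ifitm3 at 446.5 CPM in vehicle, from 38 to 67 UMIs each. As a comparison class, chosen after its values were seen because they were the lowest, 191 vehicle cells with plasmacytoid dendritic markers and at least 3000 UMIs held Ifitm1 in 3.66% (1.49 to 7.41), Ifitm2 in 9.95% (6.10 to 15.1) and Ifitm3 in 8.90% (5.27 to 13.9) at 3000 UMIs, with a median of 16002 UMIs before thinning. The Ifitm1 share of vehicle CD4 cells with Foxp3, 6.52% (5.23 to 8.005), overlapped that of this class, which, picked for its low values, is no independent measure of background, and no expression is read from that share. Free RNA could hold at most 16.7% of the UMIs of mSTAR1302 CD4 cells without Foxp3 and 68.1% of those of vehicle, if every macrophage marker UMI in them were free, because macrophage markers summed to 83.7 CPM in mSTAR1302 and 1278 CPM in vehicle there. At that bound free RNA would hold 7.10% of the Ifitm3 level in mSTAR1302 and 157% of it in vehicle, 10.3% of the Ifitm1 level in mSTAR1302 and 118% in vehicle, and 4.89% of the Ifitm2 level in mSTAR1302 and 56.8% in vehicle. The vehicle levels of Ifitm1 and Ifitm3 in this gate therefore cannot be told apart from free RNA at the bound, while at least part of the Ifitm2 level lies above it. In CD8 cells the bound reached 27.2% of the Ifitm3 level in mSTAR1302 and 96.4% in vehicle, and in CD4 cells with Foxp3 it reached 6.96% of the Ifitm1 level in mSTAR1302 and 175% in vehicle. With 10% of UMIs subtracted as free RNA, the log2 ratio of the 3 genes summed in CD4 cells without Foxp3 was 2.68, against 2.53 as counted.

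**Figure D2:**
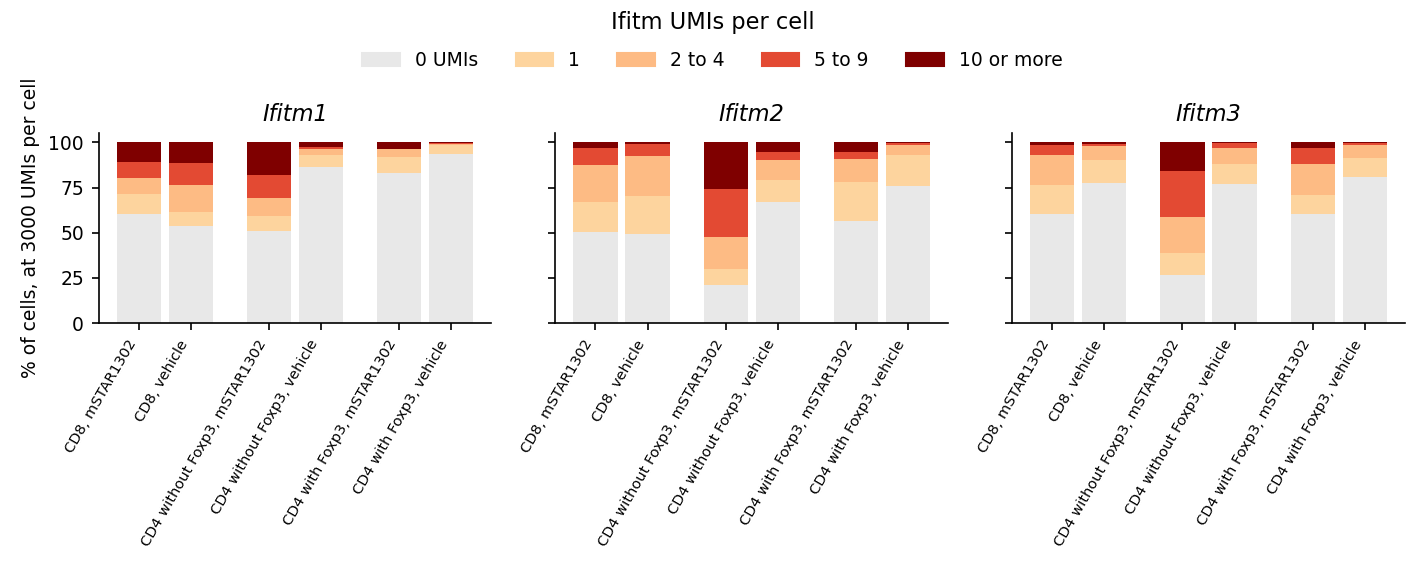
Share of cells (%) by the number of UMIs of each gene at 3000 UMIs per cell, for the 3 gates with mSTAR1302 left of vehicle in each pair. Among CD4 cells without Foxp3, 25.9% of mSTAR1302 cells and 5.14% of vehicle cells held 10 or more Ifitm2 UMIs.

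The spread within a gate was wide. At 3000 UMIs, 17.8% of mSTAR1302 CD4 cells without Foxp3 held 10 or more Ifitm1 UMIs and 50.9% held none, and of vehicle ones 2.57% held 10 or more and 86.6% held none. For Ifitm2 25.9% of mSTAR1302 cells and 5.14% of vehicle cells held 10 or more, and for Ifitm3 15.9% of mSTAR1302 cells and 0.183% of vehicle cells did. In the vehicle cells of this gate the 5 highest cells held 42.1% of all Ifitm1 UMIs at full depth, against 9.15% in mSTAR1302. CD8 cells in both libraries split between many cells without Ifitm1 and a tail with a lot of it. Of mSTAR1302 CD8 cells 60.25% held none and 10.8% held 10 or more, and of vehicle CD8 cells 53.5% held none and 11.3% held 10 or more.

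The genes occurred together in the same cells of CD4 without Foxp3 and of CD8. All 3 were found in 42.8% of mSTAR1302 CD4 cells without Foxp3 and in 5.14% of vehicle ones. If each gene were spread over cells without regard to the others, the shares would be 28.5% in mSTAR1302 and 1.03% in vehicle. In these mSTAR1302 cells Ifitm3 was found in 84.1% of cells with Ifitm2 (80.7 to 87.0) and 31.9% of cells without it (24.4 to 40.2). In vehicle it was found in 42.5% of cells with Ifitm2 (35.2 to 50.1) and 13.5% of cells without it (10.1 to 17.4). The pairing held in CD8 cells, where Ifitm2 was found in 72.0% of cells with Ifitm1 and 34.6% of cells without it in mSTAR1302, and in 69.0% of cells with and 34.4% of cells without it in vehicle. In vehicle CD4 cells with Foxp3, Ifitm2 was found in 26.2% of cells with Ifitm1 (17.2 to 36.9) and 24.1% of cells without it (21.8 to 26.7), and in that gate the intervals overlapped for every pair except Ifitm2 and Ifitm3 in vehicle. As a description, Pearson's r between Ifitm1 and Ifitm3 over CD8 cells was 0.30 in mSTAR1302 and 0.18 in vehicle, and between Ifitm1 and Ifitm2 it was 0.50 in mSTAR1302 and 0.42 in vehicle. Cells of a library share its free RNA, and thinning gave them equal depth.

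As counted, the interferon-induced genes did not show the same difference between the libraries. Within the CD4 gate without Foxp3, Ifit1, an interferon-induced protein that binds foreign RNA, stood at 16.8 CPM in mSTAR1302 and 31.7 CPM in vehicle, or 0.531-fold (0.402 to 0.699). Isg15, a ubiquitin-like protein, stood at 117 CPM in mSTAR1302 and 107 CPM in vehicle, or 1.09-fold (0.960 to 1.23), and Ifit3 at 6.32 CPM in mSTAR1302 and 11.3 CPM in vehicle, or 0.557-fold (0.347 to 0.884). These ratios carry the same limit as those of the Ifitm genes, since at the bound free RNA would hold 6.15% of the Isg15 level in mSTAR1302 and 88.1% in vehicle, 14.2% of the Ifit1 level in mSTAR1302 and 42.6% in vehicle, and all of the Ifit3 level in both, from 1 to 14 UMIs each in the near-empty droplets. Of 20 type I interferon response genes with at least 20 CPM in this gate, 0 reached 2-fold in the direction of mSTAR1302 and 0 in that of vehicle, where 0.852% and 5.01% of all genes tested were, and their median log2 ratio was -0.31. At 1.5-fold, 1 was higher and 5 were lower, where 2.21% and 15.7% of all genes were, and with a minimum of 5 CPM 3 were 2-fold lower, where 9.03% of all genes were. Of 22 interferon gamma response genes 1 was higher, Gbp2 at 103 CPM in mSTAR1302 and 45.1 CPM in vehicle, and 1 was lower, the chemokine Cxcl10 at 13.6 CPM in mSTAR1302 and 51.6 CPM in vehicle. Their median was 0.03. Of 6 receptor and signalling genes, Ifngr2, a chain of the interferon gamma receptor, was lower, at 7.27 CPM in mSTAR1302 and 28.9 CPM in vehicle.

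In CD8 cells, where Ifitm3 was 1.80-fold higher in mSTAR1302, the type I list also leaned that way. Its median log2 ratio was 0.39 over 19 genes, and 3 were at least 2-fold higher, the antiviral enzyme gene Oas3, Rtp4 and the nucleic acid sensor Zbp1, at 2.80, 2.14 and 2.01-fold. Over all CD8 genes tested, 0.933% were that much higher. At 1.5-fold 7 were higher, where 3.13% of all genes were. None was 2-fold lower, where 4.46% of all genes were. Ifit1 stood at 34.9 CPM in mSTAR1302 and 20.7 CPM in vehicle. Of 21 interferon gamma response genes, with a median of 0.41, the GTPase gene Igtp was 2-fold higher, at 120 CPM in mSTAR1302 and 58.5 CPM in vehicle. For CD4 cells with Foxp3 the type I list had a median of -0.44 over 21 genes, with 0 higher and 2 lower, where 0.489% of all genes were higher and 1.75% lower. At 1.5-fold 5 were lower, where 8.14% of all genes were, and with a minimum of 5 CPM 5 were 2-fold lower, where 4.44% were. The 2 lower ones were Bst2, a tether of budding viruses, at 86.7 CPM in mSTAR1302 and 198 CPM in vehicle, and Herc6 at 20.1 CPM in mSTAR1302 and 41.4 CPM in vehicle. Of 22 interferon gamma response genes in that gate 1 was lower, the chemokine Cxcl9, at 0.802 CPM in mSTAR1302 (1 UMI) and 36.0 CPM in vehicle (519 UMIs). Macrophage markers in that gate summed to 12.8 CPM in mSTAR1302 and 328 CPM in vehicle, and whether Cxcl9 came with them was not tested. The part that free RNA could hold was not worked out for Cxcl9, Cxcl10 or Ifngr2.

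Cd40lg itself was higher in mSTAR1302 in CD4 cells without Foxp3, at 217 CPM against 93.3 CPM in vehicle, or 2.33-fold (2.08 to 2.62). Where Foxp3 was present it stood at 53.0 CPM in mSTAR1302 and 10.4 CPM in vehicle, or 5.09-fold (3.75 to 6.85). Of 11 helper T cell genes tested in CD4 cells without Foxp3, 3 stood at least 2-fold higher and 2 lower, where 0.852% of all genes were higher and 5.01% lower. The other higher ones were the type 2 cytokine genes Il13, at 148 CPM in mSTAR1302 and 6.25 CPM in vehicle, and Il4, at 25.8 CPM in mSTAR1302 and 11.3 CPM in vehicle. The lower ones were the transcription factor gene Maf at 0.483-fold and the cytokine gene Il10 at 0.211-fold. In CD8 cells Il13 was 10.5-fold higher and Tnfsf11 was 0.303-fold. Among genes for partners and modifiers of IFITM proteins, the tetraspanin gene Cd81 was lower, at 0.149-fold in CD4 cells without Foxp3 and at 6.72 CPM in mSTAR1302 and 42.4 CPM in vehicle in CD8 cells. Cd9, another tetraspanin gene, was also lower in CD8 cells, at 43.7 CPM in mSTAR1302 and 89.4 CPM in vehicle. The part that free RNA could hold was not worked out for Cd81 or Cd9.

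Inside each library, cells were next split by whether they held a UMI of Ifit1, Ifit3 or Isg15 at 3000 UMIs per cell. In CPM, Ifitm3 was higher in CD8 cells with such a UMI in both libraries, while Ifitm1 was lower. In mSTAR1302 CD8 cells Ifitm3 stood at 505 CPM in 1452 cells with an interferon-induced UMI and 329 CPM in 4158 cells without, or 1.53-fold (1.45 to 1.61). In vehicle it stood at 270.2 CPM in 359 cells with and 145.4 CPM in 1981 cells without, or 1.86-fold (1.62 to 2.12). The share of mSTAR1302 cells in which Ifitm3 was found was 44.4% with (41.8 to 47.0) and 37.6% without (36.1 to 39.1). In vehicle the shares, 24.0% with (19.6 to 28.7) and 22.5% without (20.6 to 24.4), had overlapping intervals. Ifitm1 went the other way in both libraries. It stood at 730.3 CPM in cells with and 1083 CPM in cells without in mSTAR1302, or 0.674-fold (0.649 to 0.701), and at 869 CPM in cells with and 1123 CPM in cells without in vehicle, or 0.774-fold (0.722 to 0.829). Ifitm2 was between them, at 0.851-fold (0.811 to 0.892) in mSTAR1302 and 0.888-fold (0.800 to 0.984) in vehicle. The share of all genes tested that differed as much in this split gives the background: 2.40% in mSTAR1302 and 7.12% in vehicle were at least 1.5-fold higher, and 1.84% in mSTAR1302 and 5.30% in vehicle were at least 1.5-fold lower.

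The number of interferon-induced UMIs sorted Ifitm3 further in CD8 cells. In mSTAR1302 it stood at 329 CPM in cells with 0 such UMIs, 385 with 1, 660 with 2 and 668 with 3 or more, and in vehicle at 145.4, 162, 455 and 396 CPM in the same steps. In both libraries the level was higher from 2 UMIs on, and the last steps had overlapping counting intervals. Ifitm1 stood at 1083, 734, 757 and 704 CPM in mSTAR1302 and 1123, 1005, 609 and 726 CPM in vehicle. Seen from the other side, 41.5% of mSTAR1302 CD8 cells with 5 or more Ifitm3 UMIs held an interferon-induced UMI (36.5 to 46.6), against 23.7% of cells with no Ifitm3 (22.3 to 25.2). In vehicle 37.2% of such cells with 5 or more (23.0 to 53.3) and 15.1% of those with none (13.5 to 16.8) held one.

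In CD4 cells without Foxp3 Ifitm3 was again higher in cells with an interferon-induced UMI, at 1.25-fold in mSTAR1302 (1.16 to 1.35; 1762 CPM with and 1410 CPM without) and 1.76-fold in vehicle (1.36 to 2.25; 284 CPM with and 162 CPM without). These directions in CPM, and those of Ifitm1 and Ifitm3 in CD8 cells, held under each alternative tried for this split. The shares of CD4 cells without Foxp3 in which Ifitm3 was found had overlapping intervals in both libraries. They were 74.3% with (66.9 to 80.7) and 72.8% without (68.8 to 76.6) in mSTAR1302. In vehicle they were 28.7% with (20.4 to 38.2) and 21.7% without (18.0 to 25.9). Ifitm1 stood at 0.947-fold in mSTAR1302 (0.869 to 1.03) and 0.733-fold in vehicle (0.535 to 0.988). Ifitm2 stood at 1.20-fold in mSTAR1302, which turned to log2 values of -0.01 with another random draw and -0.27 at 1000 UMIs per cell, and at 0.994-fold in vehicle. Ifitm3 of CD4 cells with Foxp3 stood at 1.06-fold in mSTAR1302 (0.796 to 1.41) and 1.28-fold in vehicle (1.06 to 1.55). Among the 134 mSTAR1302 cells of that gate the values of Ifitm1 and Ifitm2 changed direction with the random draw, and none is read here. Over all genes tested in this split, 9.3% in mSTAR1302 and 11.8% in vehicle were at least 1.5-fold higher in CD4 cells without Foxp3, with 6.21% in mSTAR1302 and 11.7% in vehicle at least 1.5-fold lower. Where Foxp3 was present these shares were 24.7% higher and 20.2% lower in mSTAR1302, and 3.36% higher and 3.24% lower in vehicle.

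**Figure D3:**
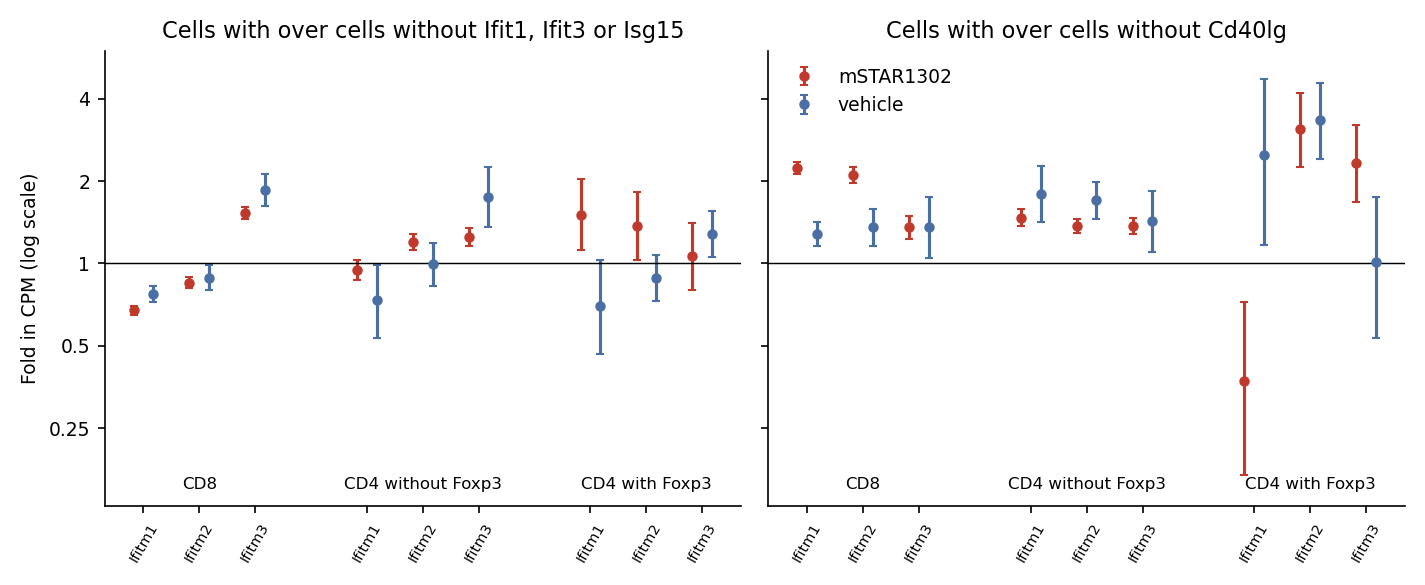
Fold (log scale) of each gene in cells with over cells without a UMI of Ifit1, Ifit3 or Isg15 (left) or of Cd40lg (right), at 3000 UMIs per cell, in the mSTAR1302 library (red) and the vehicle library (blue), with 95% counting intervals and a line at 1. In CD8 cells of both libraries Ifitm3 lies above the line and Ifitm1 below it in the left panel, and in CD4 cells without Foxp3 all points of the right panel lie above the line.

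The split by Cd40lg gave another pattern. In CPM, all 3 genes were higher in CD4 cells without Foxp3 that held a Cd40lg UMI than in those without one, in both libraries. Ifitm1 stood at 1794 CPM in 296 cells with and 1218 CPM in 394 cells without in mSTAR1302, or 1.47-fold (1.37 to 1.58), and at 319 CPM in 115 cells with and 178 CPM in 430 cells without in vehicle, or 1.80-fold (1.42 to 2.26). Ifitm2 stood at 1.37-fold in mSTAR1302 (1.29 to 1.45) and 1.70-fold in vehicle (1.46 to 1.98), and Ifitm3 at 1.37-fold in mSTAR1302 (1.28 to 1.47) and 1.43-fold in vehicle (1.10 to 1.84). All of these directions held under each alternative tried. By share of cells, Ifitm1 was found in 57.1% with and 43.1% without Cd40lg in mSTAR1302, Ifitm2 in 86.1% and 73.9%, and Ifitm3 in 80.1% and 68.0%. In vehicle the shares were 18.3% with and 12.1% without for Ifitm1, 39.1% and 31.6% for Ifitm2, and 26.1% and 22.3% for Ifitm3. The intervals of these vehicle shares overlapped for each gene. At least 1.5-fold higher were 4.4% of all genes tested in mSTAR1302 and 9.63% in vehicle, and at least 1.5-fold lower 6.28% in mSTAR1302 and 15.4% in vehicle.

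CD8 cells with Cd40lg, a minority, also held more of the 3 genes in CPM, but in vehicle this was not borne out by share of cells. Ifitm1 stood at 2080 CPM in 297 cells with and 930.7 CPM in 5313 cells without in mSTAR1302, or 2.23-fold (2.13 to 2.35), and at 1371 CPM in 98 cells with and 1072 CPM in 2242 cells without in vehicle, or 1.28-fold (1.15 to 1.41). Ifitm2 stood at 2.10-fold in mSTAR1302 (1.97 to 2.24) and 1.36-fold in vehicle (1.16 to 1.59). Ifitm3 stood at 1.36-fold in both, with intervals of 1.23 to 1.49 in mSTAR1302 and 1.05 to 1.75 in vehicle, and the vehicle value turned to a log2 of -0.02 without thinning. By share of mSTAR1302 cells, Ifitm1 was found in 66.3% with and 38.3% without Cd40lg, Ifitm2 in 72.4% and 48.2%, and Ifitm3 in 46.5% and 39.0%. In vehicle the share intervals overlapped for each gene, and Ifitm2 was found in 45.9% with and 50.7% without. Vehicle Ifitm1 stood at 1160 CPM in 79 cells with 1 Cd40lg UMI (1027 to 1306), which overlapped cells without. It stood at 2689 CPM in 15 cells with 2 and 583 CPM in 4 cells with 3 or more. In CD8 cells of mSTAR1302, 11.0% of cells with 5 or more Ifitm1 UMIs held Cd40lg (9.20 to 12.996), against 2.96% of cells with no Ifitm1 (2.41 to 3.59), and in vehicle 4.50% of the cells with 5 or more (2.94 to 6.58) and 3.92% of those with none (2.91 to 5.15) did. Among CD4 cells with Foxp3, 16 mSTAR1302 and 34 vehicle cells held Cd40lg, and the members did not go together. Ifitm2 stood at 3.10-fold in mSTAR1302 (2.26 to 4.21) and 3.36-fold in vehicle (2.42 to 4.56). Ifitm1 stood at 0.373-fold in mSTAR1302 (0.168 to 0.724), a value that turned with the random draw, and 2.49-fold in vehicle (1.17 to 4.72). Ifitm3 stood at 2.34-fold in mSTAR1302 (1.68 to 3.21) and 1.01-fold in vehicle (0.534 to 1.74). The background in so few cells was wide: 33.9% of all genes in mSTAR1302 and 17.9% in vehicle were at least 1.5-fold higher there, and 22.6% in mSTAR1302 and 21.5% in vehicle at least 1.5-fold lower. Among CD8 cells the corresponding shares were 5.29% higher and 7.28% lower in mSTAR1302, and 9.74% higher and 10.6% lower in vehicle.

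Taking both splits at once, CD4 cells without Foxp3 in mSTAR1302 held Ifitm3 at 2162 CPM with both kinds of UMI, 1429 CPM with an interferon-induced one only, 1632 CPM with Cd40lg only and 1249 CPM with neither. In vehicle the same 4 parts held 193, 303, 253 and 136 CPM. Ifitm1 in these mSTAR1302 cells stood at 1575, 1264, 1870 and 1205 CPM in the same parts, and in vehicle at 193, 154, 344 and 184 CPM. The highest vehicle part lay below the lowest mSTAR1302 part for both genes. Cells with neither kind of UMI made up 43.9% of the mSTAR1302 cells and 62.6% of the vehicle cells.

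The difference between libraries was present on each side of both splits. In CD4 cells without Foxp3 and without any interferon-induced UMI, Ifitm3 stood at 1410 CPM in mSTAR1302 and 162 CPM in vehicle, or 8.72-fold (7.57 to 10.1), and with such a UMI at 6.21-fold (5.00 to 7.78). Without Cd40lg the ratio of Ifitm3 was 7.57-fold (6.56 to 8.75), and with it 7.26-fold (5.83 to 9.16). For Ifitm1 the ratios were 6.78-fold without and 8.76-fold with an interferon-induced UMI, and 6.86-fold without and 5.63-fold with Cd40lg. Ifitm2 ranged from 3.44 to 4.96-fold over the same 4 parts. A higher share of Cd40lg cells in mSTAR1302, 42.9% against 21.1% in vehicle, stood beside the higher Ifitm levels, and its part in the result was not tested. The ratio of Ifitm1 in cells with Cd40lg, 5.63-fold, was below the 7.13-fold of the whole gate at full depth. Cells with Cxcr6, a chemokine receptor of tissue T cells, numbered 379 of 690 in mSTAR1302 and 136 of 545 in vehicle, and within them the ratio of the 3 genes summed was 3.50-fold (3.25 to 3.78) and that of Ifitm2 2.45-fold (2.22 to 2.72), against 5.79-fold and 4.30-fold in the whole gate at full depth. In cells without Cxcr6 the summed ratio was 6.13-fold (5.65 to 6.67). In CD8 cells Ifitm1 stood at 1.52-fold in cells with Cd40lg (1.36 to 1.69) and 0.869-fold in those without (0.844 to 0.894).

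**Figure D4:**
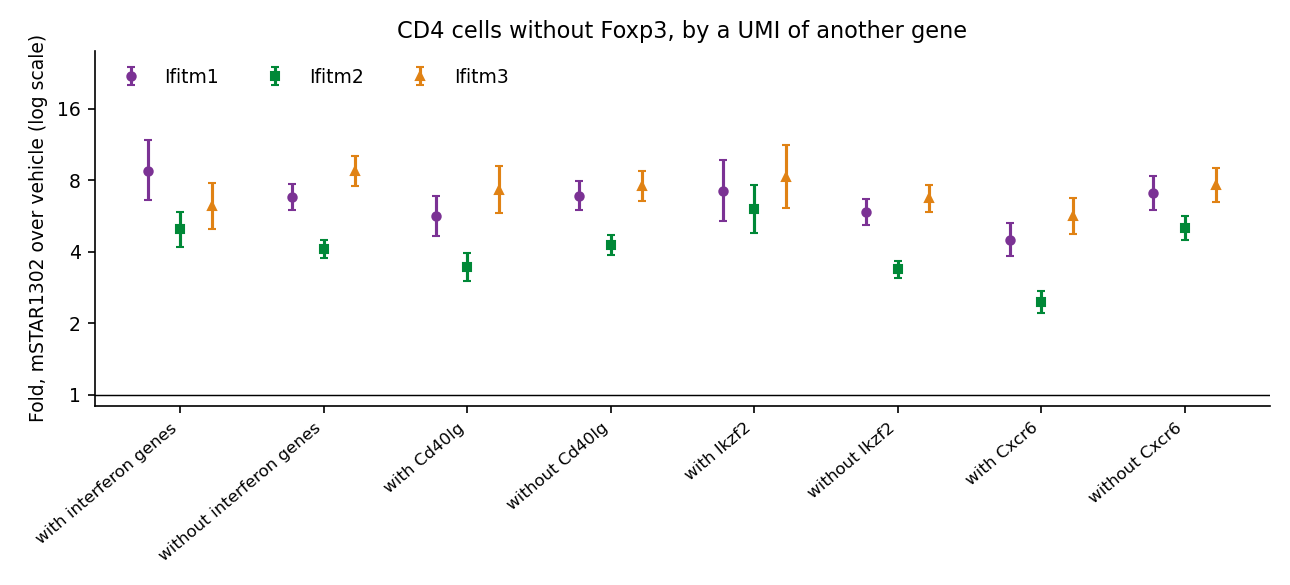
Fold of mSTAR1302 over vehicle (log scale) for each gene in CD4 cells without Foxp3, after dividing the cells by a UMI of interferon-induced genes (Ifit1, Ifit3 or Isg15), Cd40lg, Ikzf2 or Cxcr6 at 3000 UMIs per cell, with 95% counting intervals. Every part lies above 1, from 2.45-fold for Ifitm2 in cells with Cxcr6 to 8.76-fold for Ifitm1 in cells with interferon-induced genes.

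Of the other genes by which the cells were split, those with at least a 1.5-fold contrast in the same direction in both libraries named the cells in which the 3 genes were high. Among CD4 cells without Foxp3, those with Cxcr6 held more Ifitm1 (1.93-fold in mSTAR1302, 3.03-fold in vehicle), more Ifitm2 (1.75-fold in mSTAR1302, 3.59-fold in vehicle) and more Ifitm3 (1.78-fold in mSTAR1302, 2.40-fold in vehicle). Lower levels stood in cells with Ikzf2, the Helios factor of regulatory T cells, with Ifitm1 at 0.505-fold in mSTAR1302 and 0.411-fold in vehicle and Ifitm3 at 0.522-fold in mSTAR1302 and 0.425-fold in vehicle. Cells with Ccr7, a homing receptor of naive and central memory T cells, held Ifitm3 at 0.587-fold in mSTAR1302 and 0.504-fold in vehicle. The exhaustion-associated factor gene Tox went with less Ifitm1 (0.477-fold in mSTAR1302, 0.399-fold in vehicle) and Ifitm3 (0.607-fold in mSTAR1302, 0.507-fold in vehicle). The inhibitory receptor genes Pdcd1 and Havcr2 did not share this direction in mSTAR1302 and did not meet the threshold in both libraries. With Pdcd1, Ifitm1 stood at 1796 CPM in mSTAR1302 and 239 CPM in vehicle, and without it at 1410.5 and 202 CPM. With Havcr2 it stood at 2206 CPM in mSTAR1302 and 204 CPM in vehicle (18 cells), and without it at 1395 and 207 CPM.

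Cells of the regulatory kind can lack a Foxp3 UMI, so cells with Ikzf2 were also taken apart. They made up 71 of the mSTAR1302 and 197 of the vehicle CD4 cells without Foxp3 at 3000 UMIs. Among cells without Ikzf2, Ifitm1 stood at 1544 CPM in mSTAR1302 and 263 CPM in vehicle, or 5.86-fold (5.18 to 6.66), Ifitm2 at 3.37-fold (3.11 to 3.66) and Ifitm3 at 6.70-fold (5.88 to 7.66). Among cells with Ikzf2 the ratios were 7.20-fold for Ifitm1, 6.04-fold for Ifitm2 and 8.23-fold for Ifitm3. CD4 cells with both Foxp3 and Ikzf2 numbered 116 in mSTAR1302 and 1220 in vehicle, and Ifitm1 stood at 124 CPM in mSTAR1302 and 36.1 CPM in vehicle, or 3.43-fold (2.37 to 4.87), Ifitm2 at 2.62-fold (2.11 to 3.23) and Ifitm3 at 4.03-fold (3.35 to 4.83).

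In CD8 cells the members differed in the company they kept. Ifitm1 was higher in cells with the inhibitory receptor genes Pdcd1 (2.68-fold in mSTAR1302, 1.72-fold in vehicle) and Havcr2 (2.23-fold in mSTAR1302, 1.59-fold in vehicle). It was lower in cells with Tcf7 (0.490-fold in mSTAR1302, 0.360-fold in vehicle) and Lef1 (0.467-fold in mSTAR1302, 0.419-fold in vehicle), factors of naive and stem-like T cells, and in cells with the granzyme gene Gzmk (0.441-fold in mSTAR1302, 0.300-fold in vehicle). Ifitm2 shared the lower values with Lef1, at 0.664-fold in mSTAR1302 and 0.476-fold in vehicle, and with Gzmk, at 0.658-fold in mSTAR1302 and 0.312-fold in vehicle. Ifitm3 met the threshold in CD8 cells with interferon-induced genes alone, Ifit3 (1.76-fold in mSTAR1302, 2.44-fold in vehicle), Isg15 (1.59-fold in mSTAR1302, 2.04-fold in vehicle) and Bst2 (1.56-fold in mSTAR1302, 2.14-fold in vehicle). Cells with Il2 held more Ifitm1, at 1.84-fold in mSTAR1302 and 2.33-fold in vehicle, from 72 mSTAR1302 and 31 vehicle cells.

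Over the 6 combinations of gate and library, each member's nearest genes by mean Pearson's r, among 6610 genes, were the other two members. For Ifitm1 these were Ifitm2 (mean r of 0.45) and Ifitm3 (0.30), followed by Lgals3 (0.28), Nkg7 (0.22), Cxcr6 (0.21), S100a4, Ifng, Id2, Ctsw and Lgals1. Ifitm2 was followed in the same way by Ifitm1 and Ifitm3 (0.44), then Lgals1 (0.28), Lgals3 (0.27), S100a4, Cd52, Cxcr6, Nkg7, Fxyd5 and Vim. Beside Ifitm2 and Ifitm1, Ifitm3 had Lgals1 (0.20), Cd52 (0.19), S100a6, Cxcr6, Tmsb4x, Lgals3, Fxyd5 and Sh3bgrl3. Cd40lg ranked 15 for Ifitm1, 22 for Ifitm2 and 48 for Ifitm3, Isg15 ranked 6546, 5144 and 84 for the same genes, and the interferon-induced gene Bst2 ranked 6412, 2444 and 27, nearer to Ifitm3 than Cd40lg was. These are weak relations over cells that share a library and its free RNA, and they are given as a description.

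The receptor segments that mSTAR1302 is said to bind were compared over the cells in which a Trbv UMI was seen. In mSTAR1302 CD8 cells, 805 with a Trbv13-2 or Trbv13-3 UMI held Ifitm1 at 848 CPM and 802 cells with a UMI of another Trbv segment only held 1499.8 CPM, or 0.565-fold (0.548 to 0.582). In vehicle, 101 and 503 such cells gave 1.00-fold (0.947 to 1.06). Ifitm3 was higher in the Trbv13 cells of both libraries, at 1.41-fold in mSTAR1302 (1.34 to 1.49) and 1.52-fold in vehicle (1.34 to 1.71), and Ifitm2 lower in both, at 0.841-fold (0.807 to 0.875) in mSTAR1302 and 0.715-fold (0.647 to 0.788) in vehicle. Among CD4 cells without Foxp3, with 28 Trbv13 cells in mSTAR1302 and 20 in vehicle, Ifitm3 stood at 0.620-fold in mSTAR1302 (0.536 to 0.714) and 0.623-fold in vehicle (0.371 to 0.992). These differences between gates and between libraries were not tested.

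Cells outside the T cell gate gave levels for comparison. Classes with few cells reached the highest levels, with Ifitm3 at 4242 CPM in 2 mSTAR1302 and 5121 CPM in 4 vehicle cells with endothelial markers. In cells with neutrophil markers, 3 in mSTAR1302 and 8 in vehicle, Ifitm1 stood at 2672 CPM in mSTAR1302 and 2747.5 CPM in vehicle. In cells with macrophage or monocyte markers, 35 in mSTAR1302 and 117 in vehicle, Ifitm3 stood at 1796 CPM in mSTAR1302 and 1143 CPM in vehicle, Ifitm2 at 1017 CPM in mSTAR1302 and 917 CPM in vehicle, and Ifitm1 at 256 CPM in mSTAR1302 and 84.4 CPM in vehicle. Cells with fibroblast markers, 10 in mSTAR1302 and 16 in vehicle, held Ifitm3 at 1137 CPM in mSTAR1302 and 1883 CPM in vehicle. The lowest Ifitm3 levels stood in cells with plasmacytoid dendritic markers, a cell type known for making type I interferon. There 16 mSTAR1302 cells held 70.7 CPM and 194 vehicle cells 42.6 CPM of Ifitm3. Macrophage markers inside the T cell gates ran against the Ifitm levels and summed to more in vehicle in every gate, for instance 79.0 CPM in mSTAR1302 and 897 CPM in vehicle in CD8 cells and 12.8 CPM in mSTAR1302 and 328 CPM in vehicle in CD4 cells with Foxp3. Of the 8 macrophage markers 4 were at 0 in mSTAR1302 CD4 cells with Foxp3 and 0 were in the other gates. Without cells holding 3 or more macrophage marker UMIs, the log2 ratio of the 3 genes summed was 0.26 in CD8, 2.57 in CD4 without Foxp3 and 2.14 in CD4 with Foxp3. The members moved apart in CD8 under that setting, with Ifitm3 at 1.35, against 0.84 with all cells, and Ifitm1 at -0.05, against 0.06.

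**Figure D5:**
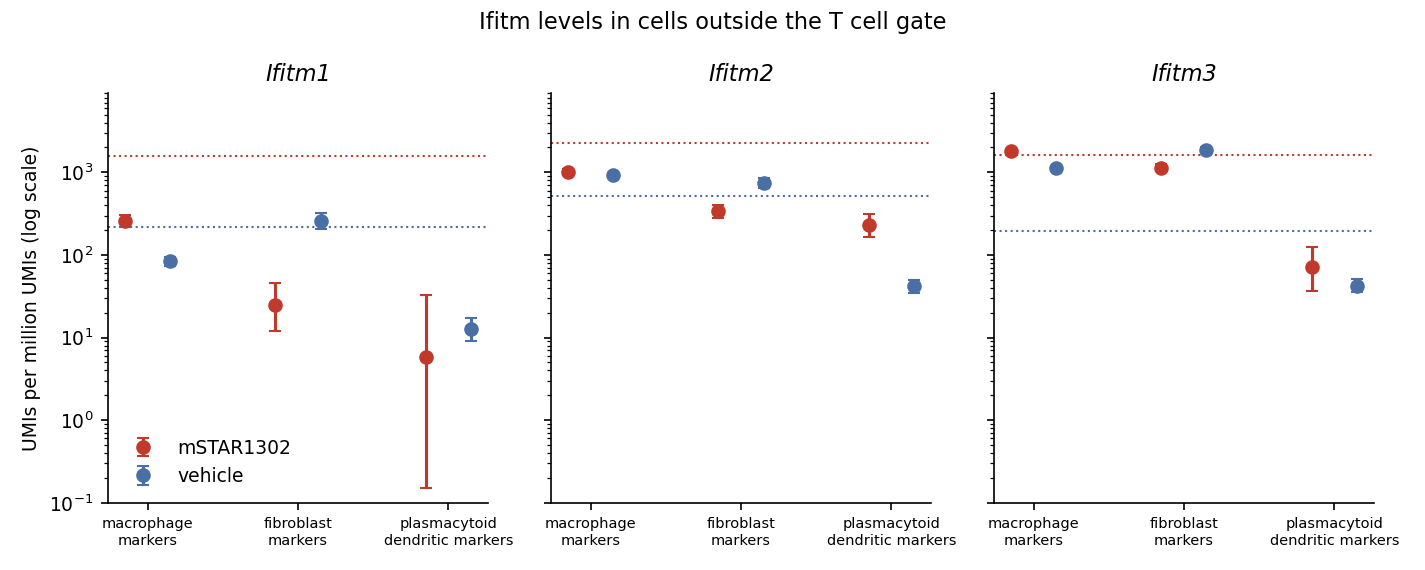
Level of each gene in CPM (log scale) in cells outside the T cell gate, grouped by markers, in mSTAR1302 (red) and vehicle (blue), with 95% counting intervals; dotted lines mark CD4 cells without Foxp3 of the same library. The mSTAR1302 line of Ifitm3, at 1615 CPM, lies near the macrophage level of 1796 CPM, and the vehicle line, at 194 CPM, far below the vehicle macrophage level of 1143 CPM.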

How the data were processed

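Both libraries were deposited by the authors as raw barcode matrices of UMI counts. Per the submitters' processing notes, reads were processed with Cell Ranger 6.0.1 against mm10, while the deposited matrix header, per the file headers, names version 4, and this difference was not resolved. No normalization is in the deposited counts. The libraries held 96486469 UMIs in mSTAR1302 and 110026997 in vehicle. Cells, gates and thinning are defined in the text. Levels are UMIs per 1000000 UMIs (CPM) summed over a gate, with exact Poisson intervals, exact Clopper-Pearson intervals for shares and exact conditional binomial intervals for ratios. Log2 ratios used a pseudocount of 1 CPM. Genes entered counts over lists with at least 20 CPM in either library. With 1 library per group no test between groups was possible and none was run. Calculations used Python 3.11.15, NumPy 2.4.6, SciPy 1.17.1 and pandas 2.3.3, and the ratios were tested on simulated data. The simulated counts were independent Poisson draws from summed gate levels. They check the calculation, and not the intervals where few cells hold most UMIs. Gene positions came from GENCODE M21 for 32235 of 32285 identifiers, and promoters from RefSeq. Named genes were the 3 members, list genes at least 2-fold apart, partner genes at least 1.5-fold apart in one direction in both libraries, and the 10 genes most like each member. A partner gene that met this rule is not reported here. The members and lists were chosen with earlier results of these data known.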

Additional observations from a re-analysis of the deposited data

Results flagged for a closer look

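Some contrasts inside cells ran in opposite directions in different gates or libraries, and none of these differences was tested. For the split by Ifit1, Ifit3 or Isg15 in mSTAR1302, Ifitm1 stood at 0.674-fold in CD8 cells and 1.51-fold in CD4 cells with Foxp3, and Ifitm2 at 0.851-fold in CD8 cells, 1.20-fold in CD4 cells without Foxp3 and 1.37-fold in CD4 cells with Foxp3. For the split by Cd40lg, Ifitm1 stood at 0.373-fold in mSTAR1302 CD4 cells with Foxp3 and 2.49-fold in vehicle ones, and in mSTAR1302 at 2.23-fold in CD8 cells and 1.47-fold in CD4 cells without Foxp3. The values of CD4 cells with Foxp3 in mSTAR1302 turned with the random draw of UMIs. For cells with Trbv13-2 or Trbv13-3 over cells with another Trbv segment only, Ifitm3 stood in mSTAR1302 at 1.41-fold in CD8 cells, 0.620-fold in CD4 cells without Foxp3 and 1.62-fold in CD4 cells with Foxp3. In vehicle it stood at 1.52-fold in CD8 cells, 0.623-fold in CD4 cells without Foxp3 and 0.708-fold in CD4 cells with Foxp3. The mSTAR1302 value of CD4 cells with Foxp3 rests on 9 cells with a Trbv13 UMI.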

How the results depend on the processing

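No paired analysis was possible because each group has 1 library. Without replicates, depth and cell number limit the precision, and the smallest gate, mSTAR1302 CD4 cells with Foxp3, holds 146 cells. The cause of each shift below was not tested unless the setting's construction shows it. Ratios of mSTAR1302 over vehicle are log2 values. For the 3 genes summed in CD8 cells the ratio was 0.28, and 0.43 with median-ratio scaling, 0.17 with cells weighted equally and without Foxp3 UMI cells, 0.26 at a mitochondrial limit of 5% and without cells with 3 or more macrophage marker UMIs, 0.24 with gates on 2 UMIs, 0.23 without the deepest 5% of cells, 0.22 with 10% of UMIs subtracted as free RNA, 0.10 without Ikzf2 UMI cells and 0.20 thinned to 3000 UMIs. Ifitm1 alone, at 0.06, turned to -0.17 with cells weighted equally, -0.04 with gates on 2 UMIs, -0.09 without the deepest cells, -0.02 with free RNA subtracted, -0.08 without Foxp3 UMI cells, -0.18 without Ikzf2 UMI cells, -0.05 without macrophage marker cells and -0.13 thinned. Ifitm3 alone, at 0.84, reached 1.35 without macrophage marker cells, 1.29 without the deepest cells and 1.18 thinned. For CD4 cells without Foxp3 the sum, at 2.53, was 2.75 with median-ratio scaling, 2.59 at the 5% limit, 2.32 with gates on 2 UMIs, 2.68 with free RNA subtracted, 2.19 without Ikzf2 UMI cells and 2.73 without the 5 highest cells per gene. In CD4 cells with Foxp3 the sum, at 1.98, was 2.11 with median-ratio scaling and without Ikzf2 UMI cells, 2.33 with cells weighted equally, 2.07 at the 5% limit, 2.37 with gates on 2 UMIs, 2.17 without the deepest cells, 2.39 with free RNA subtracted, 2.14 without macrophage marker cells, 1.58 without the 5 highest cells and 2.30 thinned. Leaving out Foxp3, Ikzf2, macrophage marker or highest cells, and thinning levels to 3000 UMIs, were chosen after seeing the data.

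Shares of cells, as mSTAR1302 minus vehicle in percentage points, moved in CD8 cells for Ifitm2 to 3.0 at 1000 UMIs and -7.0 unthinned, and for Ifitm3 to 10.5 at 1000 UMIs and 9.8 unthinned. Those of CD4 cells without Foxp3 moved to 29.4 at 1000 UMIs for Ifitm1, 39.3 unthinned for Ifitm2, and 41.6 at 1000 UMIs and 42.9 unthinned for Ifitm3. Type I genes at least 1.5-fold higher numbered 7 in CD8, where 3.13% of all genes were, and 1 in CD4 without Foxp3, where 2.21% were. Those at least 1.5-fold lower numbered 5 in each CD4 gate, where 15.7% of all genes were without Foxp3 and 8.14% with it. At a minimum of 5 CPM, 3 in CD4 without Foxp3 and 5 in CD4 with Foxp3 were 2-fold lower, where 9.03% and 4.44% of all genes were.

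The interferon split of the summed genes, as a log2 ratio of cells with over cells without, moved as follows. In mSTAR1302 CD8 cells it was -0.04 at 1000 UMIs, -0.17 unthinned and -0.04 with 2 UMIs marking a cell, and in vehicle -0.37 at 1000 UMIs, -0.27 with 2 UMIs and -0.32 with another draw. In mSTAR1302 CD4 cells without Foxp3 it was -0.07 at 1000 UMIs, 0.25 unthinned, 0.30 with 2 UMIs and 0.04 with another draw, and in vehicle -0.15 at 1000 UMIs, -0.23 unthinned and -0.16 with 2 UMIs. Ifitm2 in these mSTAR1302 cells turned to -0.27 at 1000 UMIs and -0.01 with another draw. In mSTAR1302 CD4 cells with Foxp3 the sum was -0.56 at 1000 UMIs, -0.01 unthinned, 1.51 with 2 UMIs and -0.30 with another draw, with Ifitm1 at -2.29, -0.07 and -1.69 and Ifitm2 at -0.90, -0.15 and -0.03 at 1000 UMIs, unthinned and with another draw. In vehicle the sum was -0.47 at 1000 UMIs and 0.30 unthinned, and Ifitm3 was -0.01 at 1000 UMIs.

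The Cd40lg split of the sum in mSTAR1302 CD8 cells was 0.94 at 1000 UMIs, 0.83 unthinned and 1.32 with 2 UMIs, and in vehicle 0.81 at 1000 UMIs, 0.20 unthinned, 1.14 with 2 UMIs and 0.64 with another draw, with Ifitm3 at -0.02 unthinned. In mSTAR1302 CD4 cells without Foxp3 it was 0.25 at 1000 UMIs, 0.85 unthinned and 0.30 with 2 UMIs, and in vehicle 0.40 at 1000 UMIs and 1.00 with 2 UMIs. In mSTAR1302 CD4 cells with Foxp3 it was 2.96 at 1000 UMIs, 1.62 unthinned, 1.24 with 2 UMIs and 1.98 with another draw, with Ifitm1 turning to 3.6, 2.6 and 2.85 at 1000 UMIs, unthinned and with another draw. In vehicle it was 1.64 at 1000 UMIs, 0.56 unthinned and 2.55 with 2 UMIs.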
